A study of Mus musculus with 4 samples.

Results

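The Osr1 dermal-type mesenchyme of the embryonic mouse nose comprised 1407 of 13739 retained cells. Cells were chosen by their UMI counts, a UMI being the tag that tells captured transcripts apart. A cell was a member when Col1a1, Col1a2 and Col3a1 together gave at least 3 UMIs, Osr1 gave at least 1, and at least 1 of Cacna2d3, Wnt5a, Glis1 and Twist2 was detected. Pax9, Shox2, Foxl2, Agtr2, Pou3f4, Sp7, Epcam and Cdh5 all had to be at 0 UMIs. These 16 genes chose the cells, so their values below are a description, and they were left out of every count of tested genes.

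The study profiled dissociated whole noses at embryonic day 14.5 by droplet single-cell RNA sequencing of transcript 3′ ends. By title, 2 libraries were wild-type controls and 2 were Sox10Cre/Yap/Taz conditional knockouts, here control 1, control 2, mutant 1 and mutant 2. The series text gives the mutants as Sox10cre;yap flox/WT;taz flox/flox, so a wild-type Yap allele remained in each, and the sample labels name the transgene Tg(Sox10-cre)1Wdr on C57Bl/6J. The controls are C57Bl/6J animals in the sample labels but floxed Yap and Taz animals without Cre in the series text, and this difference was not settled. In the mutants Cre acts where Sox10 has been transcribed, so the whole animal is not a knockout. The labels do not state that the libraries came from separate animals, so p-values measure the spread between these libraries, which may be technical. They also name more than 1 sequencing provider without tying a library to either, so provider and genotype cannot be told apart.

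Most facial mesenchyme derives from the cranial neural crest, whose migrating cells pass through a Sox10-expressing stage. It gives rise to the dermis, cartilage, bone and other connective tissue of the snout. Osr1 encodes an odd-skipped zinc-finger transcription factor that marks several embryonic connective tissue progenitors. Of the genes required with it, Twist2 is a basic helix-loop-helix factor of the dermis, Wnt5a a ligand of non-canonical Wnt signalling, Glis1 a zinc-finger factor and Cacna2d3 an auxiliary subunit of calcium channels.

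The libraries held 20170229 to 35887490 UMIs. Control 1 held 296 members, control 2 held 284, mutant 1 held 405 and mutant 2 held 422, with 2033746 to 3433870 UMIs per library. Their median depth was 6478, 6664, 8156 and 4838 UMIs per cell in that order, highest in mutant 1 and lowest in mutant 2. Between 3 and 5 cell barcodes were shared by any pair of libraries, no shared barcode was a member in both, and none held identical counts.

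Osr1 (chromosome 12, 9570116 to 9581500, GRCm38) was at 318 and 305 CPM (summed UMIs scaled to a fixed total) in the control members and at 308 and 364 CPM in the mutant members. Osr1 UMIs reached 13 in a cell, 661 members held exactly 1 and 746 held at least 2. As a measure of background, no Osr1 UMI was seen in 33 to 68 macrophages per library, which allows a share of up to 4.41% to 9.09%. In endothelial cells the only Osr1 UMI was in 1 of 24 cells of control 2 (4.17%). Both cell types had a higher median depth than the members in every library. Macrophages were taken by at least 3 UMIs of C1qa plus C1qb, endothelial cells by Cdh5 and Pecam1. Both also had to hold under 3 UMIs of Col1a1, Col1a2 and Col3a1 together. Cells with more mesenchymal RNA were thus left out, so the background may be higher than these shares. Wnt5a was detected in 1146 members, Cacna2d3 in 1074, Twist2 in 855 and Glis1 in 734, and 355 members had all 4.

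The edges of the membership rule were wide. In the 4 libraries 3380 collagen-gated cells had Osr1. Of these, 1564 had a partner gene but were left out for a barred gene, most often Shox2 (869 cells) and Agtr2 (530 cells), and a cell can hold more than 1 barred gene. Cells with no barred gene and no partner gene numbered 173. Only the collagen minimum kept out 4 cells.

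Marker lists of other cell types were at different levels in the members. The 10 epithelial markers summed to between 6.21 and 35.3 CPM per library and the 10 glial markers to between 22.7 and 34.4 CPM. Sox10 itself was at 1.48 CPM in control 1 and at 0 in the other libraries. The 8 erythroid markers summed to 4.92, 12.4, 7.86 and 843 CPM, so mutant 2 stood apart, with Hbb-bs alone at 472 CPM. The 10 macrophage markers summed to 26.1, 137, 18.9 and 69.4 CPM, highest in control 2. Sums per library were also taken for neuron markers (731 to 883 CPM), meninges markers (275 to 423 CPM), osteoblast markers (175 to 246 CPM), mural markers (174 to 346 CPM) and chondrocyte markers (55.9 to 266 CPM). Their part in the results was not tested.

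Members made up 8.74% of collagen-gated cells in control 1 (exact 95% binomial interval 7.81 to 9.74), 13.4% in control 2 (12 to 14.9), 16.6% in mutant 1 (15.2 to 18.2) and 12.2% in mutant 2 (11.2 to 13.4). The intervals cover counting error only. Mutant 1 was highest and control 1 lowest, and the groups overlapped because control 2 lay above mutant 2. The means were 11.1% and 14.4%, a difference of 3.35 percentage points (exact two-sided permutation test, p = 0.667, n = 2 against 2, smallest possible p 0.333). Cells with at least 3000 UMIs were also thinned to 3000 UMIs, cells below that were left out, and the rule was applied anew. A cell that lost its barred gene in thinning could then count as a member. The shares were 7.71% (235 of 3048 cells), 10.9% (210 of 1922), 13.4% (295 of 2197) and 11.4% (333 of 2930). In that changed set of cells the groups no longer overlapped, with an exact permutation p of 0.333. No difference in the share was detectable with these libraries.

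**Figure D1:**
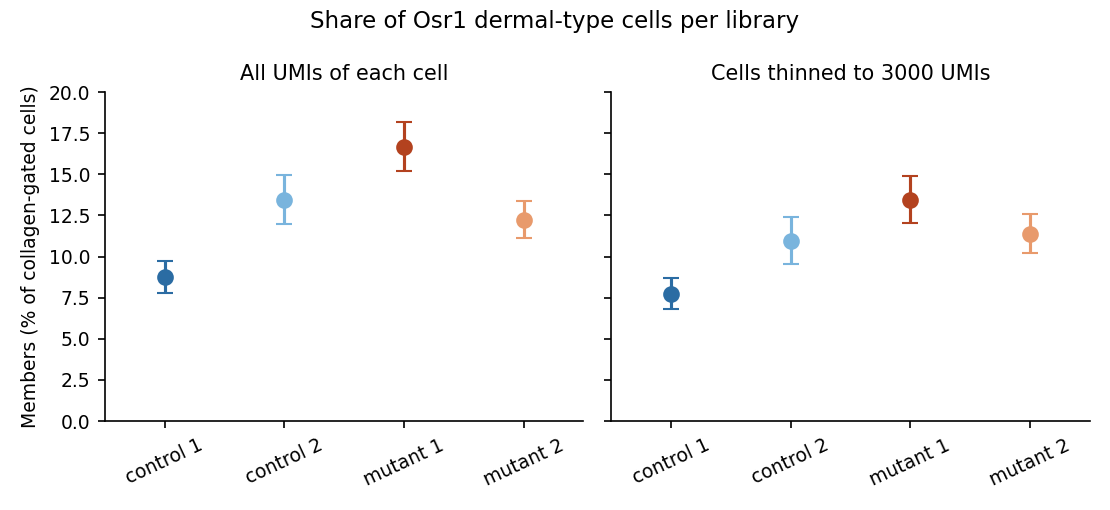
Share of members among collagen-gated cells, in percent, for each library, with exact 95% binomial intervals as bars. Left, with all UMIs, control 2 (13.4%) lies above mutant 2 (12.2%); right, with cells thinned to 3000 UMIs, both mutant libraries (13.4% and 11.4%) lie above both controls (7.71% and 10.9%).

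To describe what accompanies Osr1, members were compared with cells that met every other criterion but had no Osr1 UMI, 668, 501, 521 and 818 cells per library. Some of these may carry Osr1 below detection, and their median depth was lower than that of the members in every library, at 6019, 6207, 7020 and 4513 UMIs. Members had higher levels of the transcription factors Ebf1, Ebf2 and Ebf3, of Epha3 and Slit2, and of the proteoglycan gene Vcan, and lower levels of cartilage genes. Outside the rule, 897 of 12340 genes passed an adjusted p of 0.05 by edgeR's quasi-likelihood test with library as a block (7.27%), 383 higher (3.1%) and 514 lower (4.17%) in members. Among retained cells with no UMI of Sox9, Col2a1, Runx2 or Alpl, a subset chosen after the result was seen, 495 genes passed, 366 of them among the 897.

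Ebf factors are helix-loop-helix proteins of mesenchymal and adipocyte precursors, among other lineages. Ebf3 was at 160, 197, 255 and 196 CPM in members of control 1, control 2, mutant 1 and mutant 2, and at 74.3, 69.9, 104 and 82.6 CPM in counterparts. Every member value lay above every counterpart value, a log2 difference of 1.28 ± 0.0686 (SE, n = 4 libraries, edgeR adjusted p = 8.78e-08). Ebf1 was at 1125, 1283, 1191 and 1166 CPM against 611, 718, 553 and 596 CPM, again without overlap, a log2 difference of 0.95 (adjusted p = 2.69e-08). Ebf1 was also detected in 66.2% to 71.4% of members and in 35.9% to 52.1% of counterparts after thinning to 3000 UMIs, and in 72.5% to 78.7% and 44.9% to 61.5% without thinning.

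The largest rises by the naming rule (12 genes, same direction in all 4 libraries and at least 20 CPM) were in Gpm6a, Wdr17, Lrrtm4, Cdh7, Car10, Snap25, Abi3bp, Chodl, Ccn3, Grm8, Ebf3 and C1ql1. Gpm6a, a membrane glycoprotein of growing neurites, was at 59.0, 41.5, 32.6 and 59.2 CPM in members and at 15.8, 7.39, 6.51 and 21.9 CPM in counterparts, a log2 difference of 1.91 ± 0.154 (edgeR adjusted p = 3.5e-06). Gpm6a (chromosome 8, 54954843 to 55060871, plus strand) and Wdr17 (54629055 to 54887184, minus strand) are near each other on the chromosome. Cdh7, a classical cadherin, was at 25.6, 27.7, 50.4 and 40.6 CPM against 9.82, 5.97, 19.3 and 14.9 CPM, a log2 difference of 1.52. Ccn3, a matricellular protein, was at 3.79 CPM against 3.65 CPM in mutant 1, so that library added almost nothing to its difference, and without control 2 its edgeR adjusted p was 0.069.

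The 8 named genes lower in members were Rgs5, Ibsp, Sox6, Col11a2, Sox5, Col2a1, Col9a1 and Mia. Rgs5, a gene of pericytes and other mural cells, was at 1.97, 0, 0 and 0.884 CPM in members and at 65.4, 66.2, 15.1 and 22.6 CPM in counterparts. Of 9 mural markers tested 3 were lower (Rgs5, Acta2, Cspg4) and 1, Tagln, higher, with a median log2 difference of -0.96, and 8 of the 9 had a negative difference. Sox5 and Sox6, partners of Sox9 in cartilage, were at 6.19 to 18.2 CPM and 6.41 to 32.0 CPM in members, and at 87.9 to 130 CPM and 136 to 204 CPM in counterparts. Ibsp, a bone matrix protein, was at 9.28 CPM in members and 12 CPM in counterparts of mutant 2, so the libraries differed in size of effect.

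**Figure D2:**
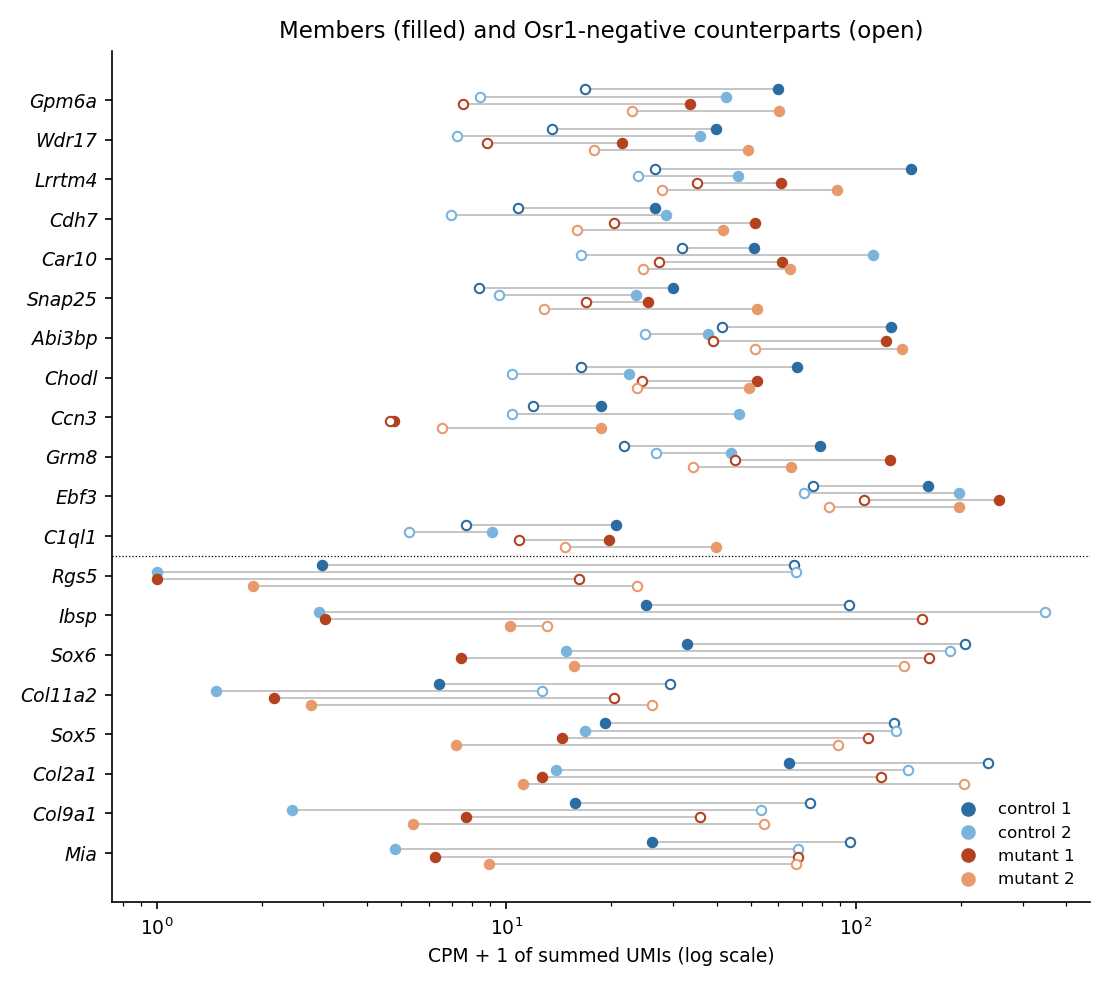
CPM + 1 of summed UMIs on a log axis for the 20 named genes, with members as filled and Osr1-negative counterparts as open circles, joined for each library. Gpm6a in control 1 was at 59.0 CPM in members and 15.8 CPM in counterparts, and Col2a1 in mutant 2 at 10.2 against 203 CPM.

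Of 12 chondrocyte markers tested all 12 were lower in members, with a median log2 difference of -2.55 beside -0.0027 over all genes. Col2a1, the main collagen of cartilage, was at 63.4, 12.9, 11.6 and 10.2 CPM in members and at 238, 140, 117 and 203 CPM in counterparts, a log2 difference of -2.95 ± 0.231 (edgeR adjusted p = 2.8e-06). Control 1 was highest among the members. The subset without the 4 cartilage and bone genes left 2 of these markers to test. Cells with a UMI of any of those 4 genes made up 42.91% of members and 55.54% of counterparts in control 1. In mutant 1 they made up 44.94% of members and 42.99% of counterparts. Their share was lower in members than in counterparts in control 2 and mutant 2. Whether the differences in summed UMIs came from a few counterparts rich in these transcripts was not tested. Osteoblast markers were lower in 3 of 5 tested (Runx2, Spp1, Ibsp) and tendon markers in 3 of 6 (Scx, Tnmd, Fmod).

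Further dermal fibroblast genes, a list of 20 beyond the rule, gave 8 higher and 4 lower among 18 tested, with a median log2 difference of 0.16. Higher were Ebf1, Ebf2, Dlk1, Mfap5, Dcn, Pdgfra, Lum and Dpt. Lower were Col14a1, Prdm1, Crabp1 and Lrig1. Dlk1, an imprinted regulator of precursor differentiation, was at 620, 537, 672 and 806 CPM in members and at 334, 364, 226 and 395 CPM in counterparts, without overlap. Dpt, a dermal matrix protein, stood at 14.1 to 22.4 CPM in members. The label of a dermal-type cell comes from the genes of the rule, and only part of this further list was higher in members.

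Signalling lists moved unevenly. Among Wnt targets and antagonists 1 of 17 was higher and 8 were lower, with a median of -0.47. Dkk2, a secreted Wnt antagonist, was the higher gene, at 167, 215, 184 and 151 CPM against 108, 150, 119 and 118 CPM. Lower were the Wnt targets Sp5, Nkd1, Nkd2, Tcf7 and Apcdd1 and the antagonists Sfrp1, Wif1 and Frzb. The direction of this list depended on the comparison. Against Pax9-positive cells, described below, 6 of 15 were higher and 3 lower, with a median of 0.46. Against cells with Foxl2 or Agtr2, 6 of 14 were higher and 2 lower, with a median of 0.38. Of 10 Wnt ligands and R-spondins, Wnt2 and Rspo2 were higher than in counterparts, while Rspo1 and Rspo3 were lower. Of 11 hedgehog genes the coreceptors Gas1 and Cdon were higher and the receptor and target Ptch1 lower. Retinoid genes gave 1 higher (Crabp2) and 4 lower of 11, among them the receptor gene Rarb at 18.3 to 37.4 CPM against 52.6 to 94.1 CPM.

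Guidance genes gave 5 higher and 4 lower of 27. Epha3, an ephrin receptor, was at 289, 492, 667 and 541 CPM in members and at 170, 206, 296 and 253 CPM in counterparts, higher in every library although the ranges met. Cxcl12, a chemokine, was at 216 to 293 CPM against 87.3 to 136 CPM. In the matrix list 10 of 33 were higher and 7 lower. Vcan, a large proteoglycan, was at 773, 535, 566 and 604 CPM against 326, 369, 330 and 326 CPM, without overlap. Thbs2, a matricellular thrombospondin, was lower, at 12.9 to 22.1 CPM against 42.2 to 68.9 CPM.

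**Figure D3:**
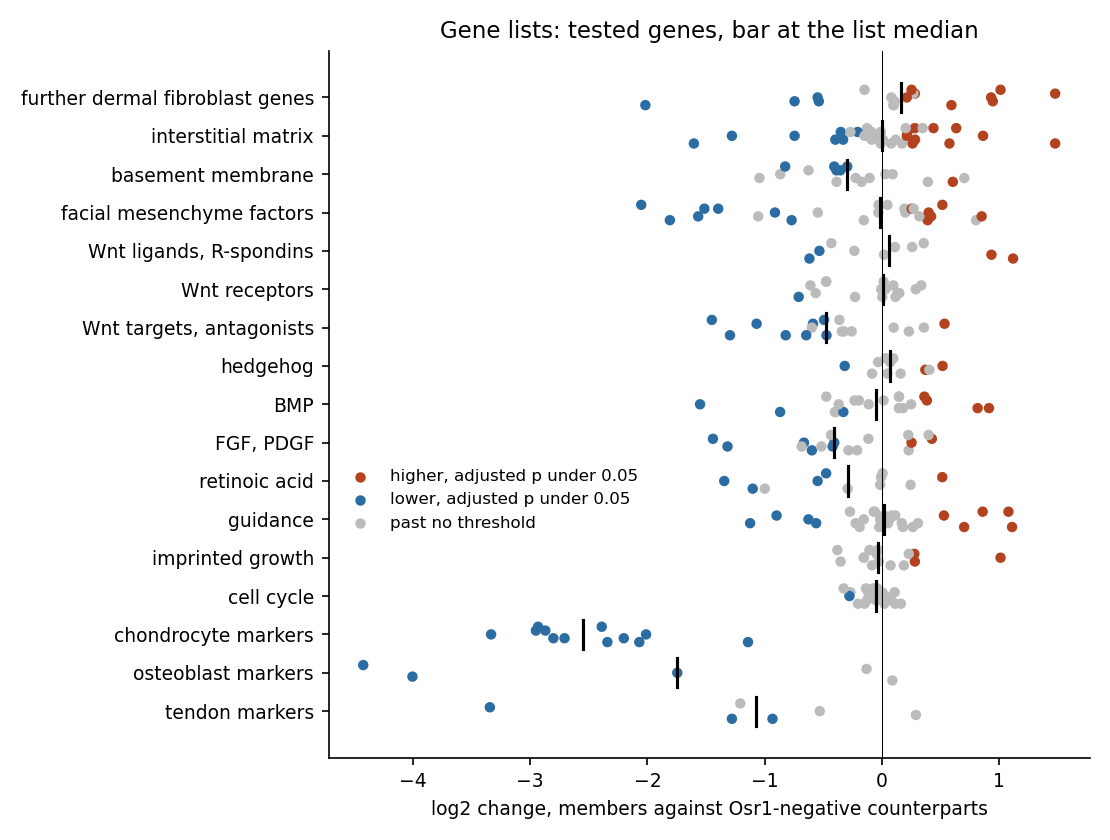
Log2 difference of members against Osr1-negative counterparts for each tested gene of 17 lists, with red for higher and blue for lower genes past an adjusted p of 0.05, grey for the rest, and a bar at each list's median. All 12 chondrocyte markers lie left of 0, with a median of -2.55, while the dermal list has its median at 0.16.

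Within the members, regional transcription factors were detected in different shares of cells. After thinning to 3000 UMIs, Twist1 was detected in 71.8%, 76.6%, 67.7% and 70.5% of members and Prrx1, a paired-type homeobox factor of mesenchyme, in 71.1%, 68.8%, 63.6% and 68.5%. Without thinning Twist1 was in 83.2% to 90.5% and Prrx1 in 78.7% to 84.9% of members. The frontonasal factor Alx1 was detected in 48.4%, 35.5%, 37.9% and 44.4%, and without thinning in 60.8%, 50.0%, 55.1% and 51.4%. Lhx8, a LIM-homeobox factor of the oral side of the face, was detected in 6.27%, 7.09%, 9.60% and 6.15%, and without thinning in 11.5%, 12%, 17.5% and 9.48%. Endothelial cells and macrophages gave 0 thinned cells with Alx1 or Lhx8 in every library. Both had been chosen for low collagen counts, so this background may be too low. Of 25 facial mesenchyme factors tested against counterparts 6 were higher (Lhx8, Osr2, Msx1, Alx1, Meis1, Prrx1) and 7 lower, among them Six2, Dlx5, Barx1 and Msx2. Against Pax9-positive cells, described below, 1 of 26 was higher and 14 were lower, with a median of -0.44. Against cells with Foxl2 or Agtr2, 8 of 22 were higher and 5 lower, with a median of 0.17.

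Detection of these factors was not spread evenly over the members. The 8 pairs examined were picked after the cells had been clustered in an exploratory step, so they carry no test, and all shares are after thinning. Among Alx1-positive members Msx1 was detected in 34.5%, 25%, 36% and 42.2%, and among Alx1-negative members in 12.2%, 14.3%, 13.8% and 19.4%. The first share was higher in each of the 4 libraries. Lhx8 was found in 10.1%, 9.0%, 12% and 6.94% of members with Alx1 and in 2.70%, 6.04%, 8.13% and 5.53% of those without. The first share was again higher in every library, but it rested on 14, 9, 18 and 12 cells with both genes. In mutant 2 the shares were close. By contrast, Lhx8 was found in 2.70%, 4.07%, 5.41% and 3.66% of members with Crabp1 (4, 7, 10 and 6 cells) and in 10.1%, 11.8%, 13.3% and 7.96% of those without. Alx1 was also less frequent among members with Crabp1 than among those without in all 4 libraries, by 33.8% against 64.0% in control 1 but by 42.7% against 45.6% in mutant 2. The pairs of Lhx8 with Alx4 or En1 rested on 0 to 2 cells with both genes per library, and 1 pair held Twist2, a gene of the rule.

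**Figure D4:**
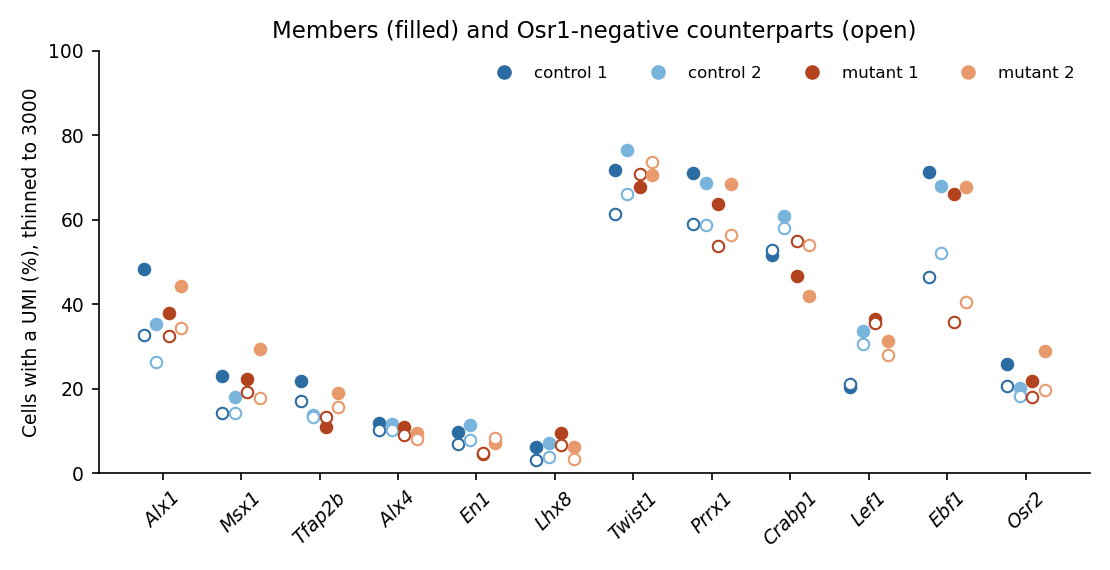
Percentage of cells with at least 1 UMI after thinning to 3000 UMIs, for 12 factors and dermal genes picked after their values were seen, in members (filled) and Osr1-negative counterparts (open) of each library. Ebf1 separates members (66.2% to 71.4%) from counterparts (35.9% to 52.1%), whereas Lhx8 stays at or below 9.60%.

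Beside neighbouring mesenchyme the members differed widely. The neighbouring cells passed the collagen minimum with Osr1, Shox2, Sp7, Epcam and Cdh5 all at 0 UMIs, and no partner gene was required. Cells with Foxl2 or Agtr2 also had Pax9 at 0 UMIs. Osr1-positive cells with a partner gene and Pax9 (203 cells), Foxl2 (207 cells) or Agtr2 (530 cells) were on neither side. Against Pax9-positive cells (203, 95, 141 and 177 cells) 1337 of 10957 genes passed (12.2%), 648 higher (5.91%) and 689 lower (6.29%), and 23.4% had an unadjusted p under 0.05. Cxcl14, a chemokine, was at 360, 609, 534 and 486 CPM in members and at 36.3, 8.19, 18.6 and 44.0 CPM in Pax9-positive cells, a log2 difference of 4.10 ± 0.247 (edgeR adjusted p = 1.21e-07). Emx2, a homeobox factor, was at 42.3 to 70.7 CPM against at most 3.83 CPM. Of the further dermal genes 14 of 18 were higher and 2 lower, with a median of 1.48 beside -0.0075 over all genes. Lower in members were Barx1, at 6.19 to 17.7 CPM against 226 to 371 CPM, the tendon factor Scx, and Mecom. The other named higher genes were Cpne4, Sox21, Cdh7, Sp9, Hey2, Npy, E330013P04Rik, Tbx18, Snap25 and Sim1.

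Against cells with Foxl2 or Agtr2 (269, 172, 104 and 205 cells) 900 of 11158 genes passed (8.07%), 362 higher (3.24%) and 538 lower (4.82%). Trps1, a zinc-finger repressor of skeletal and hair development, was at 1125, 1307, 1897 and 1644 CPM in members and at 142, 127, 350 and 309 CPM in the other cells, a log2 difference of 2.74 ± 0.117 (edgeR adjusted p = 3.58e-09). All 15 imprinted growth genes tested were lower in members, with a median of -0.74 beside 0.0022 over all genes. Igf2, a fetal growth factor, was at 239, 196, 168 and 192 CPM against 323, 310, 351 and 302 CPM. Of the further dermal genes 3 of 17 were higher (Trps1, Lef1, Ebf1) and 8 lower, including Dpt, Dcn and Lum. Dpt was at 14.1 to 22.4 CPM in members and at 27.5 to 63.4 CPM in cells with Foxl2 or Agtr2, so mature dermal matrix genes were not highest in the cells named dermal-type here. Scx, Itgbl1, Sox6, Bmpr1b and Bmper were among the named lower genes.

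The genotype comparison within members first concerns the targeted genes. Yap1 was at 64.4 and 78.3 CPM in control members and at 61.4 and 62.7 CPM in mutant members, a log2 difference of -0.23 (edgeR adjusted p = 0.803). Wwtr1, which encodes Taz, was at 161 and 181 CPM against 144 and 158 CPM, a log2 difference of -0.21 (adjusted p = 0.788). Both mutant libraries were below both controls for each gene, which held for 15.3% of all genes tested. The floxed exons are not given in the sources used here, so these 3′ counts do not check recombination. Of 19 Yap and Taz target genes tested none passed, and their median was -0.11 beside 0.0011 over all genes. That median was 0.026 with at least 2 Osr1 UMIs required. Summed counts alone do not separate fewer cells with a transcript from less transcript per cell. The shares of members with Yap1 or Wwtr1 are not given here.

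Between genotypes 5 of 11477 genes passed in members (0.0436%), 4 higher (0.0349%) and 1 lower (0.00871%) in mutants, and 862 had an unadjusted p under 0.05 (7.51%). Tafa2 (chromosome 10, 123263996 to 123741204), which encodes a secreted chemokine-like protein, was at 33.9 and 39.1 CPM in controls and at 109 and 104 CPM in mutants. The groups did not overlap, and the log2 difference was 1.51 ± 0.156 (SE, n = 2 against 2, edgeR adjusted p = 0.0257). Kcnd2, a potassium channel gene, was at 27 and 20.5 CPM against 64.7 and 92.8 CPM (adjusted p = 0.0489). Crip1, a small LIM-domain protein, was the lower gene, at 310 and 297 CPM against 150 and 157 CPM, a log2 difference of -1.02 (adjusted p = 0.0489).

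Hspa1a, a heat-shock chaperone induced by stress, was at 7.87 and 4.77 CPM in controls and at 31.5 and 39.3 CPM in mutants (edgeR adjusted p = 0.0439). Its near-identical copy Hspa1b shares sequence with it, so reads may be split between them. Hspa1b was at 7.38 and 2.86 CPM against 22.1 and 29.6 CPM, with an adjusted p of 0.103. Of 17 stress and immediate early genes tested, 5 had a positive and 12 a negative difference, with a median of -0.25. Hspa1a was also higher in both mutant libraries in counterparts (26.1 and 4.26 against 62.0 and 61.2 CPM). The same held in Pax9-positive cells (11.2 and 11.5 against 101 and 135 CPM) and in cells with Foxl2 or Agtr2 (14.4 and 3.02 against 43.7 and 33.6 CPM). Eif3l, a subunit of a translation initiation complex, was at 92.9 and 88.3 CPM in controls and at 185 and 188 CPM in mutants (adjusted p = 0.0489). Eif3l lies on chromosome 15 at 79075179 to 79094405, near Sox10 at 79154908 to 79165240. In Osr1-negative counterparts Eif3l was at 91.7 and 87.8 CPM against 184 and 195 CPM. Its neighbour Polr2f was at 185 and 179 CPM in control members and at 352 and 320 CPM in mutant members, with an adjusted p of 0.0871. The part of the transgene in these values was not tested.

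These 5 calls did not hold under every setting, although the log2 differences stayed near their size in most. With at least 2 Osr1 UMIs, with cells thinned to 3000 UMIs, or without cells holding a meninges marker, 0 genes passed by edgeR, with 645, 641 and 675 at an unadjusted p under 0.05. With at least 2 Osr1 UMIs the differences were 2.20 for Hspa1a, 1.87 for Kcnd2, 1.63 for Tafa2, 1.02 for Eif3l and -1.20 for Crip1, and with thinned cells 2.17, 1.54, 1.22, 1.00 and -0.95. With a replicate block none of the 5 passed, with edgeR adjusted p-values from 0.0996 for Tafa2 to 0.189 for Kcnd2. With the highest doublet scores removed 2 passed, and DESeq2 called 14. Leaving out a library left its genotype group without a replicate, so the spread came from the other group alone. Calls from those fits are not given and do not bear on the 5 genes.

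Basement membrane genes lay lower in mutants than interstitial matrix genes, whose median was -0.13 over 32 tested. None of 16 basement membrane genes passed, 9 had an unadjusted p under 0.05, all lower in mutants against 4.07% of all genes, and the median was -0.53. The 18 genes of the list summed to 965 and 893 CPM in control members and to 722 and 725 CPM in mutant members. In Osr1-negative counterparts they summed to 1050 and 1158 CPM against 737 and 783 CPM, and the median interaction with Osr1 status was 0.045 over 17 tested. Lama1, a laminin chain, was at 20.2 and 14.8 CPM in control members and at 2.91 and 2.65 CPM in mutant members, a log2 difference of -2.64 ± 0.381 (edgeR adjusted p = 0.0666). Col4a5, a type IV collagen chain, was at 40.8 and 26.7 CPM against 10.5 and 11 CPM (adjusted p = 0.0871).

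Markers of the meninges, the membranes around the brain, moved with these genes. Among 7 tested the median was -1.72 and none passed. That median was -2.78 without control 2, -2.57 without mutant 2, and -0.38 over 5 tested genes with cells thinned to 3000 UMIs. The median was also low for chondrocyte markers, at -0.63 over 8 tested, and for macrophage markers, at -1.22 over 6 tested, with none past the threshold. The summed chondrocyte level was 266 CPM in control 1 but 55.9 CPM in control 2, below both mutants (81.2 and 98.1 CPM), and the summed macrophage level was high in control 2 but not in control 1. Zic1, a zinc-finger factor, was at 31.5 and 23.9 CPM in controls and at 7.57 and 9.72 CPM in mutants (edgeR adjusted p = 0.0871). Slc6a13, a transporter, was at 27, 3.82, 0.874 and 0.884 CPM, high in control 1 alone. The 10 markers summed to 423 and 285 CPM in controls and to 275 and 280 CPM in mutants, and Ptgds, which was at 0.492 CPM in control 1, was at 0 in the other libraries. A UMI of any of 8 of these genes was present in 19.3% and 18.7% of control members and in 12.3% and 9.0% of mutant members. Without those cells, a subset chosen after the result was seen, the basement membrane median was -0.18 over 13 tested genes. Lama1 is in both lists, so leaving out cells with it removes its counts by construction.

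The other genes with the smallest unadjusted p in members were AW551984, Cthrc1 and Mt2. Cthrc1, a secreted collagen-associated protein, was at 98.8 and 88.8 CPM in controls and at 29.4 and 45.9 CPM in mutants, with an edgeR adjusted p of 0.0666. Mt2, a metallothionein, was at 13.3 and 11.9 CPM against 1.75 and 1.77 CPM, with an adjusted p of 0.083. AW551984 was at 57.0 and 63.0 CPM against 23.3 and 26.9 CPM, with an adjusted p of 0.0506. The groups did not overlap for any of them, which held for 37.6% of all genes tested.

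**Figure D5:**
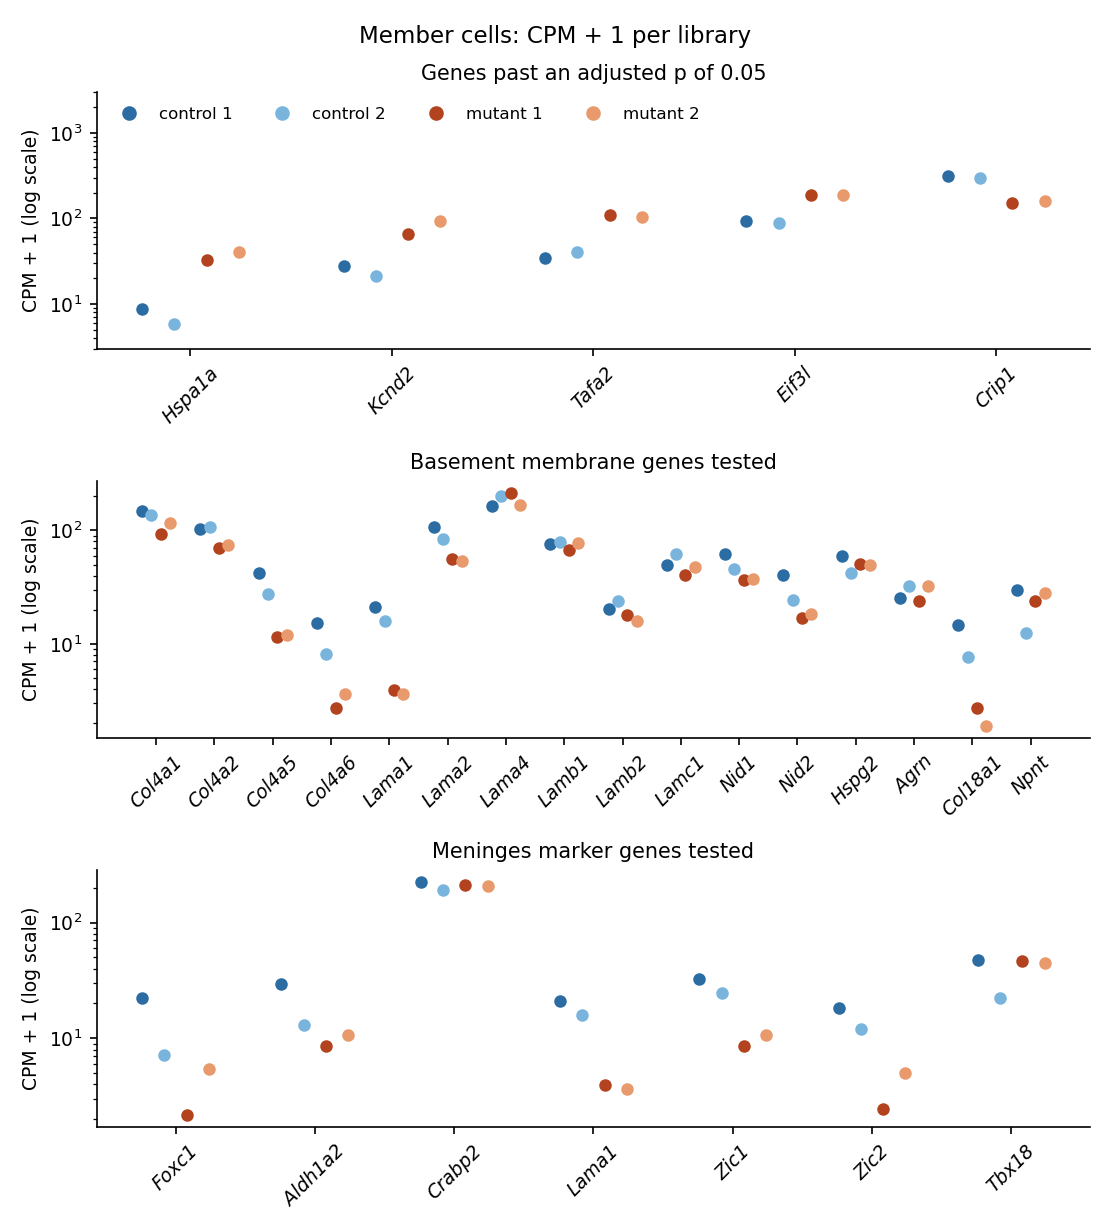
CPM + 1 on a log axis in members of each library for the 5 genes past the threshold, the 16 tested basement membrane genes and the 7 tested meninges markers. Tafa2 stands at 33.9 and 39.1 CPM in controls and at 109 and 104 CPM in mutants, and Lama1 at 20.2 and 14.8 against 2.91 and 2.65 CPM.

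Whether the genotype difference in members departed from that in their Osr1-negative counterparts was tested with an interaction term. Of 13049 genes 4 passed (0.0307%), 2 with a higher (0.0153%) and 2 with a lower (0.0153%) difference in members, and 768 had an unadjusted p under 0.05 (5.89%), 3.17% of all genes being lower. Crabp1, a cytoplasmic retinoid-binding protein, was at 640 and 664 CPM in control members and at 431 and 409 CPM in mutant members. In counterparts it was at 758 and 790 CPM against 798 and 716 CPM. The mutant values were lower in members and overlapped the controls in counterparts, an interaction of -0.62 ± 0.0764 on the log2 scale (edgeR adjusted p = 0.0229). Tafa2 was at 51.5 and 82.1 CPM against 80.8 and 58.5 CPM in counterparts, and its interaction was 1.45 (adjusted p = 0.0401). Without mutant 1 the interactions stayed near their size, at -0.58 for Crabp1, 1.31 for Epha5, 1.66 for Tafa2 and -0.86 for Col23a1. That fit left the mutants without a replicate, so its spread came from the controls alone and its p-values are not given.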

How the data were processed

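The values are raw UMI counts of each gene in each barcode, deposited by the authors and made with Cell Ranger (8.0.1 per the file headers; Cell Ranger 4, Seurat 4.3.0 and build mm10 per the submitters' processing notes). Positions are from GENCODE on GRCm38. Retained cells had 500 or more genes and no more than 10% mitochondrial UMIs. Counts were summed per library and cell set. The test was the quasi-likelihood test of edgeR 4.0.16 (TMM scaling, filterByExpr, Benjamini-Hochberg over all genes) under R 4.3.3, and DESeq2 1.42.0 was an alternative. SE is the log2 difference divided by the square root of F. Tested on simulated data, the genotype fit recovered 7% of 200 genes changed 1.5-fold (11477 genes), 75% at 2-fold (11473 genes) and 98% at 3-fold (11422 genes). False calls numbered 1, 10 and 12. The changed genes were drawn from those with higher summed counts, and all genes had the same dispersion. Recovery may therefore be lower for scarce or more variable genes. Scrublet's automatic threshold marked 0 or 1 barcodes in a library. It had not worked, and doublets were kept, except in an alternative. Thinning left out members below 3000 UMIs (9, 2, 9 and 32 per library). The rule for named genes took, past the threshold and 20 CPM, the 12 largest rises and 8 largest falls, or 12 of each between genotypes, with the smallest p-values beside them. The members and gene lists were chosen with earlier results of these data known.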

Additional observations from a re-analysis of the deposited data

Results flagged for a closer look

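For 4 genes the genotype difference in members departed from that in Osr1-negative counterparts by the interaction test of edgeR. The difference of differences was -0.62 for Crabp1, 1.32 for Epha5, 1.45 for Tafa2 and -0.89 for Col23a1, on the log2 scale. Epha5, an ephrin receptor, was at 43.8 and 52.5 CPM in control members and at 83.0 and 105 CPM in mutant members, but at 64.7 and 62.5 CPM against 43.3 and 55.2 CPM in counterparts. Col23a1, a transmembrane collagen, was at 140 and 147 CPM against 117 and 121 CPM in members, but at 143 and 184 CPM against 248 and 245 CPM in counterparts. Without mutant 1 the differences kept their direction, at -0.58, 1.31, 1.66 and -0.86 for Crabp1, Epha5, Tafa2 and Col23a1. The mutants had no replicate in that fit.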

How the results depend on the processing

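Between genotypes, 5 genes passed in members. Same-numbered libraries deviated together with a correlation of 0.032 over genes. The labels do not state what the replicate numbers mark, so whether they pair the samples was not settled. The count was 2 with a replicate block, none of them among the 5. It was 14 with DESeq2, 2 without the highest Scrublet scores, 297 with no filter on low counts, and 0 with thinned cells or with at least 2 Osr1 UMIs. Without cells holding any of 8 meninges markers it was 0 of 11030 tested. A first version of that subset, with all 10 markers, had left out 62.3% to 78.4% of members and also gave 0, of 7793 tested. Leaving out a library gave 67 to 451. The median of the Yap and Taz targets turned to 0.029 and 0.11 in those subsets and to 0.026 with at least 2 Osr1 UMIs. That of the meninges markers became 0.22 in the subset without the 8, where by construction only 2 of the list's genes remained.

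Against counterparts, 897 genes became 1519 with every other collagen-gated cell as counterpart, 356 with DESeq2, 219 with no library block (no replicate block), 495 without cells holding cartilage or bone genes, 517 with thinned cells, and 555 to 790 with a library left out. Against cells with Foxl2 or Agtr2, leaving out a library gave 563 to 843, and against Pax9-positive cells 941 to 1183. The 4 interaction calls became 12 with DESeq2 size factors, 112 with no filter, and 3 to 171 with a library left out. The cause of these changes was not tested. The share difference ranged from 1.01 to 5.69 points with a library left out. No named gene changed sign. With 2 libraries a group, changes under 2-fold were mostly beyond reach of the genotype test.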

Other observations

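Genes usually listed as neuronal were part of the members' profile. Of 7 neuron markers tested against Osr1-negative counterparts, Snap25, Gap43 and Ncam1 were higher and Stmn2 lower by edgeR. Gap43, a growth cone protein, was at 189, 202, 164 and 177 CPM in members and at 122, 111, 121 and 108 CPM in counterparts. The pan-neuronal Tubb3 and Elavl3 differed by 0.03 and 0.04 on the log2 scale and did not pass. Of 24 cell cycle genes 1 was lower (Ccnd1) and none higher, a share near the 4.17% of all genes that were lower.

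The 250 bases before each RefSeq start (GRCm38.p6) were searched on both strands for 2 motifs, both chosen after the members' genes were known. The odd-skipped core GCTACTG, searched first, was in 3.17% of promoters of genes higher in members, 3.30% of those lower and 3.03% of all 32851 promoters. The palindrome bound by Ebf factors, added afterwards, was in 0.528%, 1.10% and 0.779%. Among promoters of genes tested against counterparts the shares were 2.66% and 0.902%. The higher genes had 12 promoters of 8 genes with the odd-skipped core, several of them nearby starts of Gm35835. For that motif the share among higher genes was near that of all promoters. The palindrome was in 2 promoters of higher genes, too few to compare.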
